A study of Gallus gallus with 6 samples.

Results

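The vascular and mesenchymal growth factor systems were examined through 10 genes: the ligands VEGFA, ANGPT2 and FGF2, the VEGF receptors KDR and FLT1, the FGF receptors FGFR1, FGFR2 and FGFR3, and the PDGF receptors PDGFRA and PDGFRB. Every probe set whose only gene symbol in the platform annotation was among these 10 was taken, which gave 24 of the 38439 probe sets tested and 10 of 13009 named genes. Cells of the bursa, where the B cells of birds mature, were taken from line 0 chickens aged 3 weeks and kept overnight on adherent DF-1 monolayers, DF-1 being a fibroblast line from chicken embryos. In the SCA2 group (3 arrays) the monolayer expressed Flag-tagged stem cell antigen 2, a small lipid-anchored membrane protein encoded by LY6E, and in the control group (3 arrays) it carried the vector alone. Each culture received 2000000 bursal cells in medium with 4% serum at 37 °C under 5% CO2, the cells were then washed off, and 10 µg of their RNA was used for each Affymetrix array. The labels call the 3 arrays of a group biological replicates, but they do not say that each culture came from its own birds. The p-values therefore rest on array-to-array spread alone, which may be technical in part.

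VEGF ligands act through receptor tyrosine kinases found mainly on endothelium, where KDR carries most of the mitogenic signal and FLT1 binds VEGFA tightly and, as a membrane or a secreted protein, limits the ligand that reaches KDR. Angiopoietins act on the endothelial receptor TEK, with ANGPT2 often opposing ANGPT1. FGFs signal with heparan sulphate through FGFR receptors that differ between mesenchyme and epithelium, and PDGFs drive mesenchymal cells, pericytes and smooth muscle through PDGFRA and PDGFRB. In the bursa, lymphoid follicles form where epithelium meets mesenchyme, so both sides of these systems can be present in a bursal cell suspension.

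All levels are log2 intensities of the submitters' RMA values, and differences are SCA2 minus control. A probe set was called when limma's moderated test gave a Benjamini-Hochberg adjusted p below 0.05 over all 38439 probe sets. Deposited intensities ran from 4.28 to 20715 and the array medians from 51.2 to 53.1, and log2 values correlated with r of at least 0.990 within groups and between 0.962 and 0.980 across them. The background mark was a log2 intensity of 4.92, below which lay the means of 95% of the 689 probe sets whose names lack the prefix of chicken transcripts, and a probe set with both group means under it is called dim. Levels of different probe sets are not compared, because probe sets differ in brightness for the same amount of RNA. The labels give the source only as bursal cells, and 7 of 8 epithelium markers, 10 of 10 macrophage markers and 9 of 10 T and NK cell markers were above background beside those of B cells. CD79B, a chain of the B cell receptor, read 11.37, 11.27 and 11.54 on the SCA2 arrays, against 12.78, 12.70 and 12.77 on the control arrays.

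Of the 10 genes, read by the brightest probe set of each, FLT1, FGF2, FGFR1 and PDGFRB were higher with SCA2 and VEGFA was lower. KDR, ANGPT2, FGFR2, FGFR3 and PDGFRA were not called. That made 5 of 10 genes called, where 47% of all genes were called by their brightest probe set, 26.2% higher and 20.8% lower. Over all probe sets of the 10 genes, 7 of 24 were higher and 1 was lower, a share of 33.3% called, beside 35.3% of all probe sets (18.2% higher and 17.1% lower). The share of calls was thus near that of the whole array, and the genes differed in direction and in how far their arrays spread. The median difference was -0.09 over the 24 probe sets and -0.05 over all probe sets. By the brightest probe set of each gene it was -0.35 over the 10 genes and -0.01 over all genes. Of the 24 probe sets, 14 had a group mean above the background mark.

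**Figure D1:**
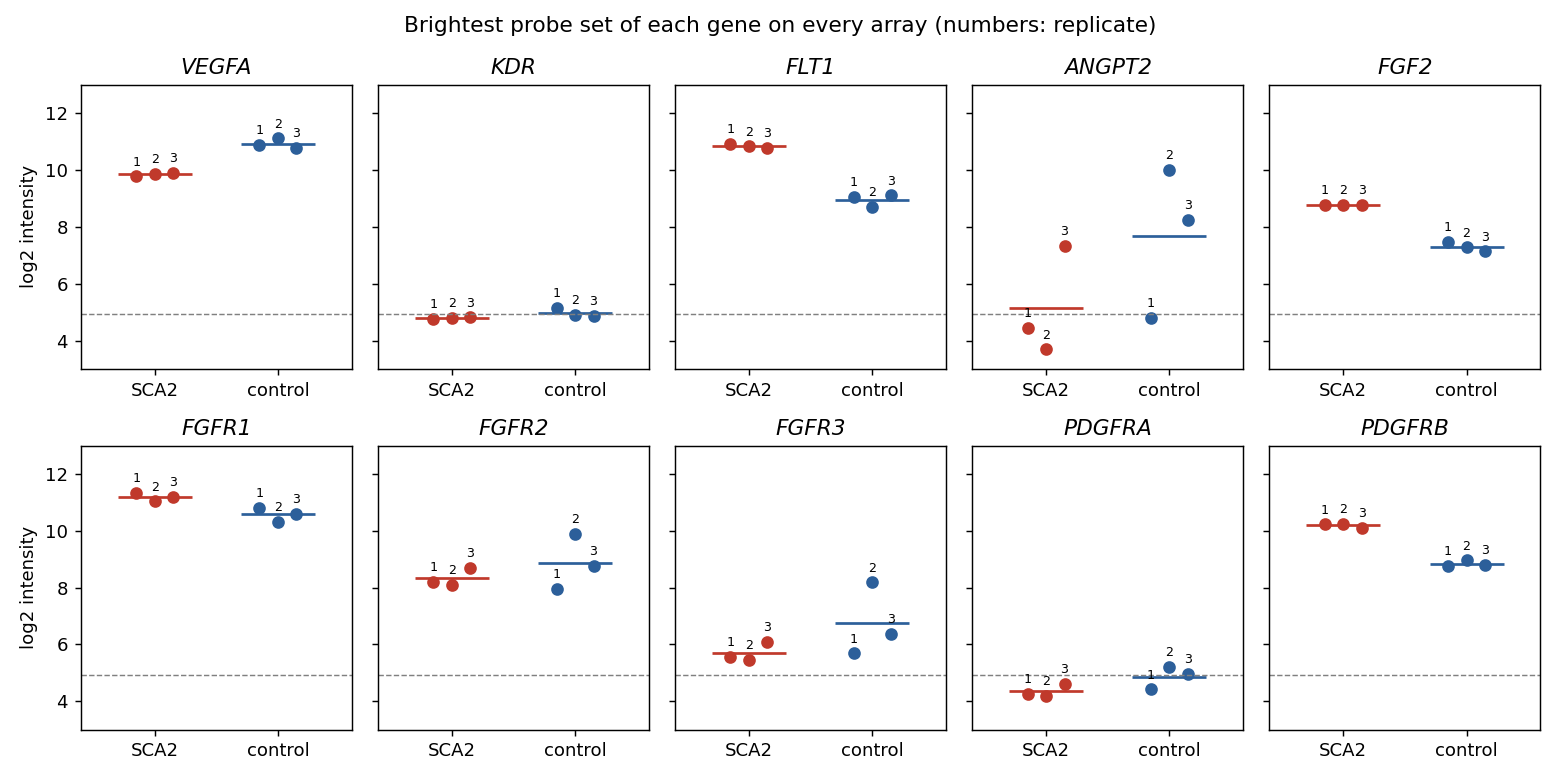
Log2 intensity (vertical axis, shared by all panels) of the brightest probe set of each of the 10 genes on the 3 SCA2 arrays (red, left) and the 3 control arrays (blue, right). Points carry the replicate number, bars are group means, and the dashed line is the background mark of 4.92. FLT1, FGF2, FGFR1 and PDGFRB lay higher on every SCA2 array than on any control array and VEGFA lower, while ANGPT2, FGFR2, FGFR3 and PDGFRA spread widely and overlapped.

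VEGFA, the main ligand of KDR and FLT1, was measured by 1 probe set. It stood at 9.78, 9.87 and 9.91 on the SCA2 arrays, against 10.89, 11.12 and 10.80 on the control arrays. Every SCA2 array lay below every control array, and the distance between the groups was larger than the spread within either. The difference was -1.08 (SE 0.10), a level 2.11-fold lower with SCA2 (limma, Benjamini-Hochberg adjusted p = 0.000231). Groups that did not overlap were common on these arrays, at 48.9% of all probe sets.

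FLT1, the VEGF receptor that binds VEGFA most tightly, moved the other way, and all 3 of its probe sets were higher. The brightest read 10.93, 10.84 and 10.78 on the SCA2 arrays, against 9.04, 8.70 and 9.11 on the control arrays. This difference was 1.90 (SE 0.12; limma, Benjamini-Hochberg adjusted p = 5.24e-05), or 3.73-fold. The second in brightness gave 9.97, 9.79 and 9.68 on the SCA2 arrays and 7.91, 7.74 and 7.74 on the control arrays, a difference of 2.01 (SE 0.10), 4.04-fold, the largest rise among the 24 probe sets (limma, Benjamini-Hochberg adjusted p = 3.1e-05). These probe sets kept nearly the same distance on each array, from -1.10 to -0.97 on the SCA2 arrays and from -1.37 to -0.97 on the control arrays (second minus brightest). The faintest probe set read 5.28, 5.04 and 5.05 on the SCA2 arrays, against 4.56, 4.29 and 4.03 on the control arrays. Its control values were all under the mark, so its difference of 0.83 (SE 0.14) is set against background (limma, Benjamini-Hochberg adjusted p = 0.00375). Whether these probe sets read the membrane form, the secreted form or both is not known here.

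KDR, the main signalling receptor of VEGFA, was at or near background in both groups. Its 5 probe sets ran from 2.28 to 4.82 over the SCA2 arrays and from 2.29 to 5.16 over the control arrays. The brightest read 4.76, 4.78 and 4.82 on the SCA2 arrays and 5.16, 4.92 and 4.87 on the control arrays. Although these groups did not overlap, the difference of -0.19 was not called (95% interval -0.42 to 0.03; limma, Benjamini-Hochberg adjusted p = 0.158). The other 4 probe sets were dim in both groups, with differences between -0.14 and 0.08 and adjusted p-values from 0.304 to 0.884. Signal this near background gives little weight to the order of the KDR arrays.

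Of the rest of the VEGF system, a further ligand and a co-receptor rose. VEGFC, a ligand chiefly of the lymphatic receptor FLT4, read 8.64, 8.62 and 8.61 on the SCA2 arrays, against 7.64, 7.47 and 7.78 on the control arrays, and rose by 0.99 (SE 0.09; limma, Benjamini-Hochberg adjusted p = 0.000241). NRP1, a co-receptor that presents VEGF to its receptors, read 10.08, 10.19 and 10.08 on the SCA2 arrays, against 8.74, 9.29 and 8.97 on the control arrays, and rose by 1.12 (SE 0.14; limma, Benjamini-Hochberg adjusted p = 0.0008). FLT4 itself was not called, at 6.68, 6.95 and 6.55 on the SCA2 arrays and 6.75, 6.56 and 6.73 on the control arrays (difference 0.05, 95% interval -0.23 to 0.33). The ligand VEGFD was dim in both groups, with a difference of 0.09.

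ANGPT2 had the widest spread of the 10 genes. Its single probe set read 4.45, 3.69 and 7.33 on the SCA2 arrays, against 4.80, 10.01 and 8.26 on the control arrays. SCA2 1, SCA2 2 and control 1 were at or below the background mark while control 2 was bright, and the groups overlapped. The difference was -2.53 with a 95% interval from -5.84 to 0.77 (limma, Benjamini-Hochberg adjusted p = 0.207). Single arrays moved the difference both ways: it was -1.37 without control 2 and not called, whereas without control 1 it was -3.98 and passed the test (limma, Benjamini-Hochberg adjusted p = 0.0335, the alternatives giving 0.0335 to 0.489). Its receptor TEK was dim, at 3.68, 3.69 and 3.94 on the SCA2 arrays and 3.90, 4.36 and 4.01 on the control arrays (limma, Benjamini-Hochberg adjusted p = 0.112). The difference of TEK, -0.32, was -0.19 without control 2 and -0.14 as the mean of its probe sets. ANGPT1 was dim as well, at 3.80, 3.80 and 3.88 on the SCA2 arrays and 4.42, 4.22 and 3.73 on the control arrays. ANGPT1 was not called (limma, Benjamini-Hochberg adjusted p = 0.218) except without control 3 (difference -0.49, adjusted p = 0.0134, within a range of 0.0134 to 0.501).

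FGF2, a heparin-binding ligand that acts on several FGF receptors, had the tightest SCA2 values of all 24 probe sets. It read 8.77, 8.77 and 8.78 on the SCA2 arrays, against 7.47, 7.28 and 7.14 on the control arrays. With every SCA2 array above every control array, the difference came to 1.48 (SE 0.10), or 2.78-fold (limma, Benjamini-Hochberg adjusted p = 5.99e-05). NUDT6, the gene next to FGF2 in the chicken annotation and known from other vertebrates to be transcribed antisense to it, was looked up after the values of FGF2 were seen. Both of its probe sets rose too, by 1.36 (SE 0.10) and 0.79 (SE 0.07). Its brighter probe set read 9.13, 9.15 and 9.10 on the SCA2 arrays, against 8.41, 8.29 and 8.30 on the control arrays.

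The FGF receptors did not move as a family. FGFR1, typical of mesenchyme, read 11.33, 11.04 and 11.21 on the SCA2 arrays, against 10.81, 10.32 and 10.61 on the control arrays. The difference of 0.61 (SE 0.14), or 1.53-fold, was the smallest of the called changes above background (limma, Benjamini-Hochberg adjusted p = 0.0128). The call remained when any single array was left out but was lost without control 2 and SCA2 3 together (0.47, adjusted p = 0.0812, within a range of 0.00273 to 0.0812).

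FGFR2, whose isoforms divide between epithelium and mesenchyme, had 5 probe sets, none of them called. Both bright ones gave the same picture. The brighter read 8.20, 8.10 and 8.68 on the SCA2 arrays, against 7.96, 9.90 and 8.76 on the control arrays. Control 2 stood 1.94 above control 1, and control 1 lay below all SCA2 arrays. The difference was -0.55 (95% interval -1.59 to 0.50; limma, Benjamini-Hochberg adjusted p = 0.383), but -0.034 without control 2 and -1.004 without control 1. The other bright probe set, at -0.60, was called only without control 1 (-1.10, limma, Benjamini-Hochberg adjusted p = 0.0456, within a range of 0.0456 to 0.896), and was -0.064 without control 2. The other 3 probe sets were dim in both groups, with differences from -0.35 to -0.01. The one at -0.35 was called only without control 3 (-0.49, limma, Benjamini-Hochberg adjusted p = 0.0278, within a range of 0.0278 to 0.308), and was -0.22 with array weights.

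FGFR3, an FGF receptor of epithelium and cartilage among other tissues, had 4 probe sets, none of them called. They differed in how far they moved: the steadiest was nearly flat, while the others varied more between arrays. The most variable of them read 4.61, 3.37 and 6.65 on the SCA2 arrays, against 5.69, 9.21 and 7.48 on the control arrays. Its difference of -2.59 was the largest fall in size of the 24 probe sets but was not called (95% interval -5.03 to -0.14; limma, Benjamini-Hochberg adjusted p = 0.0956). It was called without SCA2 3 (-3.47, adjusted p = 0.0435) or without control 1 (-3.47, adjusted p = 0.0352), within a range of 0.0352 to 0.242 over the alternatives in limma, and was -1.71 without control 2. The steadiest probe set stayed at 6.11, 6.18 and 6.09 on the SCA2 arrays and at 6.21, 6.21 and 6.22 on the control arrays. The most variable minus the steadiest ran from -2.81 to 0.56 over the SCA2 arrays and from -0.52 to 3.00 over the control arrays, so no single level of FGFR3 can be given. The brightest by its mean read 5.56, 5.47 and 6.08 on the SCA2 arrays and 5.69, 8.18 and 6.38 on the control arrays, a difference of -1.04 (limma, Benjamini-Hochberg adjusted p = 0.204). That difference was -0.33 without control 2 and -1.58 without control 1. The dim probe set of FGFR3 had a difference of -0.78 that was called only without control 1 (-1.11, limma, Benjamini-Hochberg adjusted p = 0.00877, within a range of 0.00877 to 0.212), and was -0.50 without control 2.

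The PDGF receptors differed from each other. PDGFRB, the receptor of pericytes and fibroblasts, read 10.23, 10.24 and 10.10 on the SCA2 arrays, against 8.78, 8.96 and 8.81 on the control arrays. Its difference was 1.35 (SE 0.08), equal to 2.54-fold (limma, Benjamini-Hochberg adjusted p = 5.24e-05). Its other probe set was called higher as well, by 0.53 (limma, Benjamini-Hochberg adjusted p = 0.00472), but was dim in both groups, with means of 4.10 with SCA2 and 3.57 in the control, so no fold is given. PDGFRA, a receptor of mesenchymal progenitors, read 4.25, 4.17 and 4.61 on the SCA2 arrays, against 4.42, 5.20 and 4.96 on the control arrays. Both group means were dim and the groups overlapped, with a difference of -0.52 (95% interval -1.01 to -0.02; limma, Benjamini-Hochberg adjusted p = 0.0982). PDGFRA was called only without control 1 (-0.74, limma, Benjamini-Hochberg adjusted p = 0.0128, within a range of 0.0128 to 0.246).

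The PDGF ligands moved in both directions. PDGFA, which binds PDGFRA, read 7.99, 8.00 and 8.65 on the SCA2 arrays, against 10.05, 11.06 and 10.26 on the control arrays, and fell by 2.24 on the log2 scale (SE 0.29; limma, Benjamini-Hochberg adjusted p = 0.000956), or 4.73-fold. PDGFB, which binds both receptors, read 8.45, 8.34 and 8.61 on the SCA2 arrays, against 9.69, 9.64 and 9.65 on the control arrays, and fell by 1.20 on the log2 scale (SE 0.09; limma, Benjamini-Hochberg adjusted p = 9e-05). PDGFD, a ligand of PDGFRB, rose by 0.72 (SE 0.10), all 3 of its probe sets were higher, and their mean rose by 1.13. Its values were 11.83, 11.79 and 11.68 on the SCA2 arrays, against 11.20, 10.89 and 11.05 on the control arrays. PDGFRL, a secreted PDGF receptor-like protein, rose by 1.33 (SE 0.13). PDGFC was dim in both groups.

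**Figure D2:**
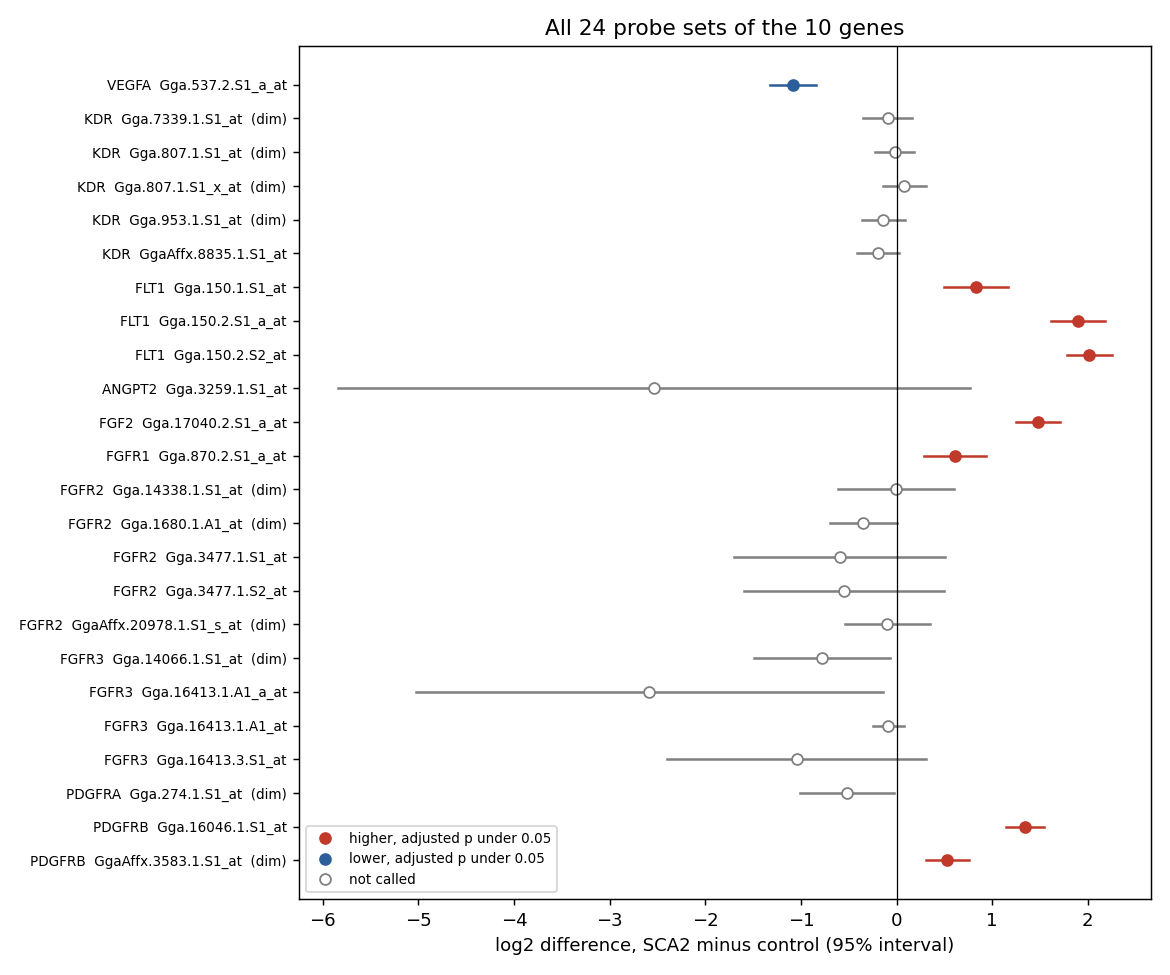
Log2 difference, SCA2 minus control, of each of the 24 probe sets (points) with its 95% interval from limma (lines), grouped by gene. Filled points passed an adjusted p of 0.05, and "dim" marks probe sets whose means lay under 4.92 in both groups. The called probe sets have narrow intervals, while ANGPT2 (-5.84 to 0.77) and the most variable probe set of FGFR3 (-5.03 to -0.14) have the widest.

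Some of the probe sets that were not called shared an array order. In 7 of the 24 probe sets, those of ANGPT2 and PDGFRA, the 2 bright ones of FGFR2 and 3 of FGFR3, control 2 was the highest and control 1 the lowest control array, and SCA2 3 was the highest SCA2 array. This order, noted after the values were seen, was present in 29.2% of the 24 probe sets and in 7.19% of all probe sets. Because it was read from these probe sets, several of the same gene, their larger share is not an independent result. Across the whole array, 316 probe sets (0.822%) ranged over at least 1 log2 unit within both groups, and 166 of these (52.5%) had the order. ANGPT2 and the most variable probe set of FGFR3 were among the 316 probe sets. The order was not confined to probe sets that were not called, as the called falls of PDGFA and FGFBP1 had it too.

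Means of several marker lists showed that order too, among them that of the epithelium markers. Relative to the control mean, the 8 measured epithelium markers averaged -1.71, -1.65 and -0.98 on SCA2 1, 2 and 3, against -0.32, 0.33 and -0.01 on control 1, 2 and 3. Of these 8 markers 7 were lower and 0 higher with SCA2, where 20.8% of all genes were lower and 26.2% higher. PROM1, at 11.41, 11.49 and 11.51 on control 1, 2 and 3, lacked the order, and so did ESRP1, which was dim. CDH1, the epithelial cadherin gene, read 8.80, 8.74 and 10.17 on the SCA2 arrays, against 10.81, 11.76 and 11.21 on the control arrays. EPCAM, an epithelial adhesion gene, read 9.65, 9.52 and 11.09 on the SCA2 arrays, against 11.54, 12.43 and 11.97 on the control arrays. Macrophage markers averaged -1.56, -1.72 and -0.98 on the SCA2 arrays and -0.34, 0.36 and -0.02 on the control arrays, with 9 of 10 lower. Among the macrophage markers CD36 and LYG2 lacked the order. Means of other lists had the order too, in some through few of their markers. Endothelium markers averaged -0.22, -0.21 and -0.04 on the SCA2 arrays and -0.13, 0.115 and 0.02 on control 1, 2 and 3. Of the endothelium markers only SOX7, TEK and SOX18 had the order, and TEK and SOX18 were dim. SOX7 spread more than any other endothelium marker, at 5.79, 9.25 and 7.92 on control 1, 2 and 3. The mean of pericyte and smooth muscle markers had the order within narrow ranges, and that of B cell markers by a small margin. Of the pericyte and smooth muscle markers only RGS5, KCNJ8 and ABCC9 had it, and KCNJ8 and ABCC9 were dim. Means of fibroblast and of T and NK cell markers lacked it. The part of RNA from any of these cell types in the values of ANGPT2, FGFR2, FGFR3 and PDGFRA was not tested. In such bulk RNA, fewer cells of a type and less RNA per cell cannot be told apart.

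**Figure D3:**
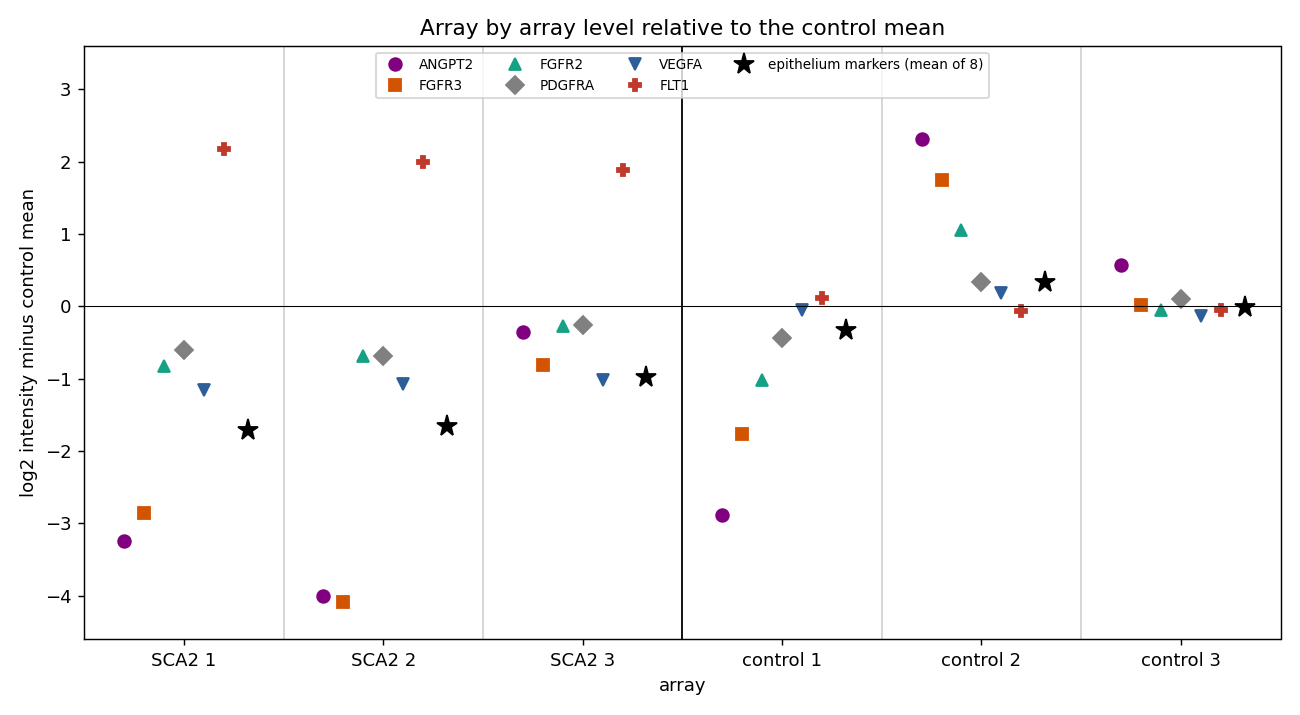
Log2 intensity relative to the control mean (vertical axis) on each of the 6 arrays (horizontal axis, SCA2 arrays left of the line) for ANGPT2, the most variable probe set of FGFR3, a bright one of FGFR2, PDGFRA, VEGFA, the FLT1 probe set with the largest rise and the mean of 8 epithelium markers (stars). ANGPT2, FGFR3, FGFR2, PDGFRA and the mean of the epithelium markers were highest on SCA2 3 within the SCA2 group. Within the control group, control 1 was lowest and control 2 highest for them. VEGFA and FLT1 were separated by group.

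Fibroblast markers also differed between the groups. Of 18 fibroblast markers, 13 were higher and 3 lower with SCA2, where 26.2% of all genes were higher and 20.8% lower. Their mean level lay between 10.74 and 10.78 on the SCA2 arrays, against 9.63 to 9.75 on the control arrays. Only LOX was dim among them. SPARC, a matrix glycoprotein gene, read 10.53, 10.56 and 10.50 on the SCA2 arrays, against 8.66, 8.71 and 8.76 on the control arrays. The 3 that fell, named after their values were seen, were the matrix genes POSTN (-1.62) and FN1 (-0.29) and the surface protease gene FAP (-0.85). The part of fibroblast RNA, from the bursa or from the monolayer, in the rises of FLT1, FGF2, FGFR1 and PDGFRB was not tested. Of 11 B cell markers 9 fell and 0 rose, and of 10 T and NK cell markers 9 fell and 0 rose.

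Markers of the vessel wall did not move together. Among 17 endothelium markers 3 were higher, 4 lower and 10 not called, where 26.2% of all genes were higher and 20.8% lower. The median difference of the endothelium markers was -0.31, against -0.01 for all genes, so most leaned lower. The mean level of these markers was 6.20 to 6.38 on the SCA2 arrays, against 6.29 to 6.54 on the control arrays. TEK, EMCN, SOX17, SOX18 and ROBO4 were dim in both groups. ERG, a transcription factor of endothelium and some mesenchyme, read 12.09, 12.15 and 12.05 on the SCA2 arrays, against 10.86, 10.50 and 10.68 on the control arrays. CDH5, the endothelial cadherin gene, read 10.57, 10.59 and 10.47 on the SCA2 arrays, against 9.02, 8.68 and 9.04 on the control arrays, and CLDN5, a tight junction gene, rose by 0.56 (0.24 as the mean of its probe sets). The 4 that fell, named after their values were seen, were the transcription regulators LMO2 (-0.89) and TAL1 (-0.53), the TGF-beta co-receptor ENG (-0.44) and the adhesion gene ESAM (-0.29). PECAM1 (-0.62) and VWF (-0.56), named likewise, narrowly missed a call (limma, Benjamini-Hochberg adjusted p = 0.0504 and 0.0577). Among 10 pericyte and smooth muscle markers 3 were higher and 2 lower, and the mean level was 6.68 to 6.74 on the SCA2 arrays, against 6.42 to 6.56 on the control arrays. CSPG4, the NG2 proteoglycan gene, rose by 1.54 (SE 0.13) and the actin-binding gene TAGLN by 0.95 (SE 0.09), while RGS5, a pericyte marker, fell by 0.55 on the log2 scale. As means of their probe sets the differences were 0.81 for CSPG4 and -0.26 for RGS5, both still called. ACTA2, KCNJ8 and ABCC9 were dim.

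Other genes of these systems were followed in lists by role. The lists held 126 symbols, with VEGFD entered also under its older symbol FIGF, and 105 genes were measured. Of these 32 rose and 20 fell, a share of 49.5% called, beside 47% of all genes. Their median difference was 0.0048, against -0.01 for all genes. Among 26 ligands 4 rose and 5 fell, a share of 34.6% called, and only 10 were above the background mark. Beside those above, ANGPTL2, an angiopoietin-like secreted protein, rose by 0.67 (SE 0.10). Small changes were called for FGF10, a mesenchymal ligand of epithelium (0.53), FGF5 (-0.35), FGF7, a further mesenchymal ligand (-0.37, dim), and ANGPT4 (-0.49). FGF10 was not called without SCA2 1, SCA2 2, SCA2 3 or control 3 (limma, Benjamini-Hochberg adjusted p from 0.0606 to 0.0902, within a range of 0.00506 to 0.0902). FGF5 was not called without SCA2 1, SCA2 3, control 1 or control 3 (adjusted p from 0.0604 to 0.101, range 0.0178 to 0.101, limma). FGF7 was called without control 1 alone among the arrays left out in turn (otherwise adjusted p from 0.0636 to 0.079, range 0.00945 to 0.138, limma).

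Among 14 receptors, co-receptors and binding proteins 4 rose and 4 fell, a share of 57.1% called, beside 47% of all genes. Of the heparan sulphate proteoglycan genes, GPC1, a glypican, rose by 1.78 (SE 0.07) and SDC2, a syndecan, by 1.59 (SE 0.13). GPC1 read 10.60, 10.59 and 10.56 on the SCA2 arrays, against 8.78, 8.87 and 8.78 on the control arrays (limma, Benjamini-Hochberg adjusted p = 1.98e-05). Of the secreted FGF carriers, FGFBP1 fell by 1.56 (SE 0.15) and FGFBP2 fell by 1.32 (SE 0.13), both on the log2 scale. FGFRL1, an FGF receptor-like protein without a kinase domain, fell by 0.80 on the log2 scale (SE 0.10), or by 0.53 as the mean of its probe sets. KLB, a co-receptor of endocrine FGFs, was dim and fell by 0.49 on the log2 scale. The call of KLB (limma, Benjamini-Hochberg adjusted p = 0.0492) was lost when any of the 6 arrays was left out, with adjusted p from 0.0536 to 0.125, within a range of 0.0143 to 0.147, and its difference was -0.32 without SCA2 3. Of 3 intracellular FGF homologues, FGF12 fell by 0.82 on the log2 scale (SE 0.13).

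Inside the cell, 12 of 22 signal relay genes rose and 3 fell, with a median difference of 0.33, where 26.2% of all genes were higher and 20.8% lower. HRAS, a small GTPase, rose by 0.68 (SE 0.07), the docking proteins GAB1 by 1.02 (SE 0.12), GAB2 by 0.67 (SE 0.07) and FRS3 by 0.60 (SE 0.09), and the kinase gene MAP2K1 by 0.61 (SE 0.07). PIK3R1, the regulatory subunit of PI3 kinase, fell by 1.05 on the log2 scale (SE 0.08). For GAB2 2 of 6 probe sets were called higher, and for MAP2K1 1 of 2. As means of all probe sets the rises were 0.25 for GAB2, 0.54 for GAB1 and 1.01 for MAP2K1, all still called.

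Among 12 feedback inhibitors of receptor tyrosine kinase signalling 5 rose and 2 fell, a share of 58.3% called, beside 47% of all genes. SPRY1, a Sprouty protein, read 9.13, 8.90 and 8.86 on the SCA2 arrays, against 7.32, 7.24 and 7.34 on the control arrays, a rise of 1.66 (SE 0.09; limma, Benjamini-Hochberg adjusted p = 3.88e-05). SPRED2 rose by 1.46 (SE 0.28), IL17RD, an inhibitor of FGF signalling, by 1.17 (SE 0.15), SPRED1 by 0.51 (SE 0.09) and SPRY2 by 0.46 (SE 0.08). CBLB, a ubiquitin ligase that restrains lymphocyte receptors, fell by 0.87 on the log2 scale (SE 0.08). DUSP5, named after its values were seen, fell by 0.36 on the log2 scale in 1 of 2 probe sets. The 5 not called were SPRY3, SPRY4, DUSP4, DUSP6 and CBL, with differences from -0.31 to 0.22. Of 8 FGF and ERK dependent transcription factors 3 (37.5%, beside 47% of all genes) were called, all higher: ETV1 by 1.93 (SE 0.13), ETV5 by 0.66 (SE 0.10) and IER3 by 0.52 (SE 0.08). The other 5 factors, ETV4, EGR1, FOS, FOSL2 and MYC, were not called, with differences from -0.20 to 0.28. For ETV1 1 of 2 probe sets was called, and for IL17RD 1 of 2. As means of all probe sets the rises were 0.89 for ETV1, 0.35 for ETV5 and 0.64 for IL17RD, all still called. The called ETV1 probe set read 10.54, 10.60 and 10.47 on the SCA2 arrays, against 8.79, 8.33 and 8.71 on the control arrays.

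Hypoxia is a known inducer of VEGFA, and the genes of oxygen sensing were listed for that reason. HIF1A, the oxygen-regulated transcription factor gene, read 10.98, 10.96 and 10.99 on the SCA2 arrays, against 10.87, 11.07 and 10.99 on the control arrays (95% interval of the difference -0.18 to 0.19). EPAS1, its relative, fell by 0.80 on the log2 scale (SE 0.10), and both of its probe sets were lower. EGLN1, a prolyl hydroxylase that marks these factors for degradation, rose by 0.54 (SE 0.08) in 1 of 4 probe sets and was not called as the mean of its probe sets (0.04, limma, Benjamini-Hochberg adjusted p = 0.595, within a range of 8.95e-05 to 0.595). EGLN3 was called lower by a narrow margin (-0.42, limma, Benjamini-Hochberg adjusted p = 0.0455). That call was lost without SCA2 1, SCA2 3, control 1 or control 2 (adjusted p from 0.0732 to 0.144, range 0.00933 to 0.44), after quantile (0.0735) or cyclic loess (0.0795) normalization, after centring (0.0644), and as the mean of its probe sets (-0.10, adjusted p = 0.44). Of 13 hypoxia targets 3 rose and 3 fell, a share of 46.2% called, beside 47% of all genes. The glucose transporter gene SLC2A1 rose by 0.73 and the collagen prolyl hydroxylase genes P4HA2 by 0.75 and P4HA1 by 0.60. The carbonic anhydrase gene CA9 fell by 0.87, STC2 fell by 0.93 and PFKFB3, a regulator of glycolysis, fell by 0.44, all on the log2 scale. PFKFB3 was not called without SCA2 1 (limma, Benjamini-Hochberg adjusted p = 0.0595, within a range of 0.00317 to 0.0998).

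**Figure D4:**
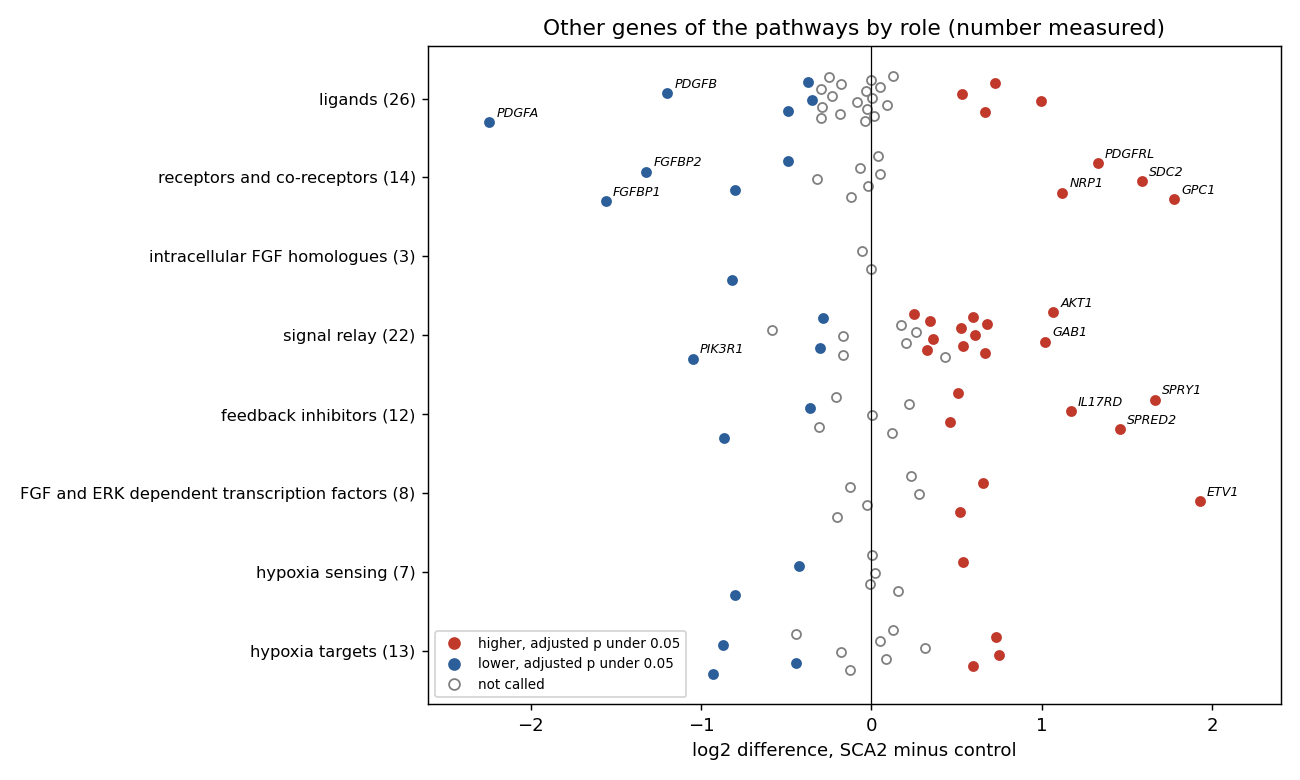
Log2 difference, SCA2 minus control (horizontal axis), of the brightest probe set of 105 other genes of these systems, in rows by role with the number measured. Filled points passed an adjusted p of 0.05 and genes beyond 1 log2 unit are named. Signal relay genes lay mostly to the right (12 higher, 3 lower), while PDGFA (-2.24) and FGFBP1 (-1.56) lay farthest to the left.

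The genes whose array profile was nearest to the FLT1 probe set with the largest rise, by the distance between log2 values centred over the 6 arrays and among 9273 bright genes, were FAM89A (distance 0.13), KIFAP3 (0.16) and ROR1 (0.17). FAM89A read 11.41, 11.23 and 11.26 on the SCA2 arrays, against 9.36, 9.23 and 9.18 on the control arrays. The genes nearest to the most variable probe set of FGFR3 were DLL1 (0.53), MMP1 (0.73) and SPON2 (0.79). DLL1, a Notch ligand gene, read 5.78, 4.48 and 8.02 on the SCA2 arrays, against 6.80, 10.08 and 8.18 on the control arrays. Of these 3 genes none was called (limma, Benjamini-Hochberg adjusted p = 0.139, 0.051 and 0.152). Without SCA2 3 all of them were, with differences of -3.22 for DLL1, -3.87 for MMP1 and -3.36 for SPON2 (adjusted p = 0.0468, 0.0212 and 0.0488), and MMP1 was also called without control 1 (-3.87, adjusted p = 0.0165). These genes were chosen for profiles like that of the FGFR3 probe set over the same arrays. Their likeness to it when an array is left out is therefore no separate result. Other arrays moved DLL1 and SPON2 the other way: DLL1 was -1.45 without SCA2 2 and -1.40 without control 2, and SPON2 was -1.42 without SCA2 2. Over the alternatives the adjusted p ran from 0.0461 to 0.343 for DLL1, from 0.0165 to 0.145 for MMP1 (below 0.05 in 7 of 17) and from 0.0488 to 0.36 for SPON2.

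Receptor genes that are neighbours in the chicken annotation were looked up after the values of the 10 genes were known. Of these, PDGFRB and CSF1R moved in opposite directions. KDR, KIT and PDGFRA follow each other as protein-coding genes. KIT, the stem cell factor receptor gene, read 6.77, 6.74 and 6.56 on the SCA2 arrays, against 5.84, 5.89 and 5.86 on the control arrays, a rise of 0.83 (SE 0.08). No probe set of KDR or PDGFRA was called. Both lay at or near background, so their direction cannot be set against that of KIT. CSF1R, the macrophage growth factor receptor gene next to PDGFRB, read 7.92, 7.52 and 9.33 on the SCA2 arrays, against 9.59, 11.00 and 10.20 on the control arrays, and fell by 2.01 on the log2 scale (SE 0.51; limma, Benjamini-Hochberg adjusted p = 0.0202). The call of CSF1R was lost without SCA2 1 (0.0692), SCA2 2 (0.0577), control 2 (0.0597) or control 3 (0.0551), all limma adjusted p-values. It was also lost with another variance model (limma adjusted p = 0.0681), with array weights (limma adjusted p = 0.051) and at a threshold of 0.01. Of the 4 probe sets of CSF1R 3 were lower and 0 higher. As the mean of these probe sets CSF1R fell by 0.99 on the log2 scale and was still called.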

How the data were processed

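RNA was hybridised to 6 Affymetrix chicken arrays, 3 of SCA2 and 3 of control cultures. The deposited values are intensities, which the authors made with RMA per the submitters' processing notes, and they were on a linear scale, so log2 was taken. The sources used here do not give RMA settings. Because RMA makes array distributions alike, changes are relative to the rest of the array. Of 38535 probe sets, 96 array controls were left out and no filter on dim ones was set. Genes were named by the platform annotation (27168 probe sets with 1 symbol, 177 with several, 11094 with none), with 0 symbols altered by a check against RefSeq. limma 3.58.1 in R 4.3.3 (lmFit, eBayes, 1 term for the monolayer) was fitted to 38439 probe sets with Benjamini-Hochberg adjustment, and figures used Python 3.11.15 and matplotlib 3.10.9. A gene was represented by its probe set of highest mean. Precision is limited by the number of arrays: for 3 arrays a group the smallest exact permutation p, two-sided, is 0.1.

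The genes and lists were chosen with earlier results of these data known. The rule for names took every probe set of the 10 genes, all called ligands and receptors, up to 6 called genes of each other list with the smallest p, and 3 nearest genes of the largest rise and fall. Genes beyond the rule, such as neighbours, were chosen after their values were seen. Deviations of same-numbered arrays correlated with r of 0.41, 0.12 and 0.04, and those of differently numbered arrays with r from -0.45 to 0.33. Because these ranges overlap, they do not decide whether same-numbered cultures belonged together. Replicate number was left out of the main fit. The fit was also run on simulated data with independent noise for each probe set. Such data lack the array order shared between probe sets here, so they do not test its effect. The alternatives tried were a block for replicate number, further normalizations, filters on dim probe sets, another variance model, array weights, a threshold of 0.01, the mean of a gene's probe sets and leaving out arrays.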

Additional observations from a re-analysis of the deposited data

How the results depend on the processing

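Of the 10 genes, 4 to 7 were called over the alternatives, against 5. With the replicate number as a block 14531 probe sets were called in place of 13557, and 8 of the 24 probe sets of the 10 genes as before. Of the other named genes FGF5 lost its call and MMP1 gained one (limma, Benjamini-Hochberg adjusted p = 0.0547 and 0.0338). Whether same-numbered arrays belong together is not given by the labels. Between 8 and 13 of the 24 were called with single arrays left out, the 13 without control 1. Over all probe sets, 8381 were called at an adjusted p of 0.01 and 8441 without control 2 and SCA2 3 together. These arrays were chosen after seeing the data, as having the highest mean of epithelium markers in their group. Of 365 alternative differences of the 24 probe sets, 342 kept their direction and side of the threshold, 2 lost a call, 7 gained one and 14 changed sign. Sign changes were confined to dim probe sets, none of which was called. The dimmest KDR probe set was 0.0011 after quantile normalization, 0.028 after cyclic loess and 0.014 after centring, and -0.078 to 0.044 with arrays left out. The FGFR2 probe set at -0.01 was 0.064, 0.076 and 0.024 under these, 0.27 with array weights, 0.096 without control 2 and SCA2 3, and -0.25 to 0.25 with arrays left out. With arrays left out in turn, the KDR probe set at 0.08 ran from -0.0056 to 0.14 and the FGFR2 probe set at -0.09 from -0.25 to 0.11. Among the other named genes HIF1A was -0.061 after quantile normalization and -0.11 after cyclic loess, and -0.051 to 0.046 with arrays left out. FLT4 was -0.047 with array weights, -0.0104 as the mean of its probe sets and -0.061 to 0.14 with arrays left out. ANGPT4 was not called at 0.01 or without control 2 and SCA2 3 (adjusted p = 0.0941). The cause of these changes was not tested. Signal near background limits what can be said of KDR, PDGFRA, TEK and most other ligands.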
